A study of Mus musculus with 6 samples.

Results

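The Fc gamma receptor genes are the 6 genes Fcgr1, Fcgr2b, Fcgr3, Fcgr4, Fcer1g and Fcgrt. They were chosen by name, as the mouse receptors for the constant part of immunoglobulin G (IgG) together with their signalling chain, and all 6 were found once among the 26012 genes of the series. RNA was sequenced from ventricular tissue of 6 hearts of male C57BL/6 mice aged 8 weeks, taken 4 days after myocardial infarction (MI). All 6 hearts had the left anterior descending coronary artery tied. In the same operation 3 hearts received control mimic and 3 received mimics of the microRNAs miR-19a and miR-19b, at 10 μg per heart, by injection into the heart. The comparison asks how these receptors differed between infarcted hearts with and without added miR-19a/19b. No uninjured heart is among the 6, so no value below shows what the infarct itself did, and the RNA came from whole tissue, so fewer cells of a type and less RNA per cell cannot be told apart.

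Fc gamma receptors sit on macrophages, monocytes, neutrophils and related cells and bind antibody that has coated a target. In the mouse, FcγRI (Fcgr1), FcγRIII (Fcgr3) and FcγRIV (Fcgr4) are activating: they pair with the common gamma chain (Fcer1g), whose immunoreceptor tyrosine-based activation motif (ITAM) recruits the kinase Syk and starts phagocytosis and an oxidative burst. FcγRIIb (Fcgr2b) is the inhibitory receptor, carries an inhibitory motif (ITIM) in its own tail and recruits phosphatases such as SHIP-1, so that the balance of activating to inhibitory receptors sets how strongly a cell responds to antibody. The neonatal Fc receptor FcRn (Fcgrt) is built like an MHC class I molecule with β2-microglobulin as its light chain, and returns IgG and albumin from endosomes to the blood in place of their breakdown. After an infarct, recruited monocytes and macrophages are the main cells that clear debris from the wound.

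The mature microRNAs are shown because the search for sites in the receptor transcripts rests on their seed, bases 2 to 8, which is in capitals. Both sequences are from RefSeq (GRCm38.p6), run 5′ to 3′ and have the same seed. They differ at U11C, counted from 1 at the 5′ end, with the miR-19a base first. The bases of mature miR-19a lie at chr14:115044048-115044070 on the plus strand. Those of mature miR-19b lie at chr14:115044358-115044380 on the plus strand and at chrX:52741991-52742013 on the minus strand.
mmu-miR-19a-3p: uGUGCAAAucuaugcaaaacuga
mmu-miR-19b-3p: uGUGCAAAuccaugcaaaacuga
None of the 6 receptor genes held a match to this seed in the longest annotated 3′ untranslated region of its transcripts. The letters searched were TTTGCACA, TTTGCAC and TTGCACA, of which the longer holds both shorter ones, on the transcript strand. The regions searched were 1367 bases long in Fcgr1, 493 in Fcgr3, 446 in Fcgr4, 342 in Fcer1g, 2397 in Fcgr2b and 256 in Fcgrt, against a median of 1103 bases over all genes with such a region. Of the 15821 tested genes with an annotated region, 2907 (18.4%) held a match. The absence of a match says only that these letters are not in these windows.

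The promoters of Fcgr1 and Fcgr4 are shown in part because these 2 genes had the largest differences between the groups, and because 3 short motifs tied to interferon signalling and to myeloid Ets factors were searched in them. The windows ran from 250 bases before to 50 after each RefSeq start site (GRCm38.p6), with 1 window per gene and 2 for Fcgr3, and both strands were read. The gamma-activated site TTCNNNGAA was found in Fcgr1 at 109 bases before the start site and in no other member, against 8.30% of 32851 promoters. The core of the interferon-stimulated response element (GAAA, any 2 bases, then GAAA) was found in Fcgr4 at 73 bases before the start site and in no other member, against 3.44% of promoters. The Ets motif GAGGAAGT was found in Fcgr4 on the reverse strand, 24 bases before the start site, and in no other member, against 3.20% of promoters. Capitals mark the motif in each line. The Fcgr1 line is chr3:96294061-96294087 on the minus strand, and the Fcgr4 lines are chr1:171018844-171018871 and chr1:171018893-171018918 on the plus strand.
Fcgr1, gamma-activated site: aggatgtatTTCCCAGAAaagggaaca
Fcgr4, interferon-stimulated response element: gtgtttctgGAAAAGGAAActggtgaga
Fcgr4, Ets motif: aggctatttACTTCCTCtcttctagt
A match is a description of the letters and not evidence of binding, and the motifs do not overlap one another here.

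Each library held 19398196 to 23645308 reads that were counted on genes. The values are normalized counts, reads divided by a size factor between 0.905 and 1.16 per library, and the 6 genes rested on between 452 (Fcgr4) and 3985 (Fcgr2b) reads per heart. Defining cardiomyocyte genes were present in every heart, but libraries stood apart. In miR-19a/19b mimic replicate 1 the 14 skeletal muscle markers summed to 3543 normalized counts, against 37.1 to 76.1 in the other 5 hearts. In miR-19a/19b mimic replicate 3 the 8 cardiomyocyte markers summed to 285718, against 470444 to 845304 in the others, and mitochondrial genes took 3.18% of the counts, against up to 6.93%. Summed levels of the 22 macrophage and monocyte markers were 110121 to 133654 in control hearts and 92161 to 142222 in hearts given miR-19a/19b mimic, lowest in replicate 1 and highest in replicate 3 of the latter. Some fold changes, ratios and list medians are therefore also given without these hearts.

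Across the 6 genes, 5 had a lower group mean in the miR-19a/19b mimic hearts and none passed the test. The test was limma on log2 of the normalized count plus 1, and it covered the 21126 genes whose mean was at least 1. The Benjamini-Hochberg adjusted p was 0.9996 for each member, and no gene of the whole table was called in either direction (0% lower and 0% higher). At an unadjusted p under 0.05, 555 genes were lower (2.63%) and 293 were higher (1.39%), and 1 of the 6 members, Fcgr4, was among the former. edgeR's quasi-likelihood test on the recovered reads called no gene (0%), and DESeq2's Wald test called 28 lower (0.133%) and 1 higher (0.00473%), none of them a member. The median log2 fold change of the 6 genes was -0.20, beside 0.00 over all genes tested, of which 49.2% lay below 0. It was -0.09 without miR-19a/19b mimic replicate 1 and -0.38 without replicate 3. The 6 genes share libraries and cells and are not independent of each other.

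Fcgr4 encodes FcγRIV, an activating receptor of monocytes, macrophages and neutrophils, and had the largest difference of the 6. The gene lies at chr1:171018920-171029761 on the plus strand (ENSMUSG00000059089, GRCm38). Its normalized counts were 1002, 916 and 864 in the control hearts and 486, 706 and 822 in the miR-19a/19b mimic hearts. Every miR-19a/19b mimic heart lay below every control heart, although replicate 3 came close to the lowest control. Groups that did not overlap were found, with the miR-19a/19b hearts lower, for 1120 of all genes (5.3%), and with these hearts higher for 824 (3.9%). Fcgr4 was the only member among the former, and none was among the latter. The mean was 928 ± 69.8 (SD, n = 3) in control hearts and 672 ± 171 in hearts given miR-19a/19b mimic. The log2 fold change was -0.50 (29.1% lower) with a standard error of 0.18 and a 95% interval from -0.90 to -0.09, but the adjusted p was 0.9996 (limma). Without miR-19a/19b mimic replicate 1 the log2 fold change was -0.28 and no gene was called. Without replicate 3 it was -0.66 with an adjusted p of 0.0385 (limma), in a fit that called 154 genes lower (0.729%) and 361 higher (1.71%), so the call rests on which heart is left out. Neutrophil markers, 12 genes, summed to 2271 to 3006 in control hearts and to 1239, 2111 and 4007 in replicates 1, 2 and 3 of the miR-19a/19b group. Their part in the Fcgr4 values was not tested.

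Fcgr1 encodes FcγRI, the high-affinity receptor, which binds single IgG molecules and is carried mainly by monocytes and macrophages. It lies at chr3:96282909-96293969 on the minus strand (ENSMUSG00000015947), overlaps no other annotated gene and shares no 50-base stretch with another transcript. Its normalized counts were 2175, 2114 and 1938 in control hearts and 1142, 1661 and 2016 in hearts given miR-19a/19b mimic. Replicates 1 and 2 of the miR-19a/19b group lay below all controls and replicate 3 lay inside the control range, so the groups overlapped. The log2 fold change was -0.41 (24.6% lower), with a standard error of 0.19 and a 95% interval from -0.83 to 0.02. The log2 fold change was -0.18 without replicate 1 of the miR-19a/19b hearts and -0.59 without replicate 3 (limma, adjusted p = 0.051).

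Fcgr3 encodes FcγRIII, the low-affinity activating receptor found on macrophages, neutrophils and natural killer cells. It lies at chr1:171051174-171064935 on the minus strand (ENSMUSG00000059498). Its normalized counts were 2639, 3128 and 2924 in control hearts and 2315, 2564 and 3223 in hearts given miR-19a/19b mimic. Replicates 1 and 2 of the miR-19a/19b group were below all controls, replicate 3 was above them all, and the log2 fold change was -0.11 with a 95% interval from -0.43 to 0.20. It was -0.01 without replicate 1 of the miR-19a/19b hearts and -0.25 without replicate 3.

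Fcer1g encodes the gamma chain that the activating receptors need for surface display and signalling, and that other receptors also use. It lies at chr1:171229572-171234365 on the minus strand (ENSMUSG00000058715). Its normalized counts were 2627, 3583 and 2436 in control hearts and 2004, 2504 and 3415 in hearts given miR-19a/19b mimic. Control replicate 2 and miR-19a/19b mimic replicate 3 were both far above the other hearts of their groups, so the groups overlapped over most of their range. The log2 fold change was -0.14 with a 95% interval from -0.61 to 0.33. It became 0.03 without control replicate 2 and 0.04 without miR-19a/19b mimic replicate 1, and was -0.34 without miR-19a/19b mimic replicate 3.

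Fcgr2b, the inhibitory receptor, lies at chr1:170958617-170976547 on the minus strand (ENSMUSG00000026656). Its normalized counts were 3070, 3194 and 3723 in control hearts and 2416, 2540 and 3415 in hearts given miR-19a/19b mimic. Replicates 1 and 2 of the miR-19a/19b group lay below all controls and replicate 3 lay between the controls. The log2 fold change was -0.27 (16.9% lower), with a standard error of 0.15 and a 95% interval from -0.61 to 0.07. It was -0.17 without replicate 1 of the miR-19a/19b hearts and -0.42 without replicate 3 (limma, adjusted p = 0.058).

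Fcgr2b and Fcgr3 are near copies over part of their length, so some short stretches of their transcripts cannot be told apart. How far this reaches their counts was not tested. Their longest coding transcripts aligned over 509 bases at 96.5% identity, and 166 of the 1298 stretches of 50 bases in the Fcgr3 transcript (12.8%) occurred in Fcgr2b as well. None of the stretches of 150 bases, the length of the sequenced reads, was shared between them. Fcgr2b shared 12.5% of its own 50-base stretches with some other gene's transcript, those of Fcgr3 included. It shared 3.15% of its 150-base stretches with transcripts of Cplx2, Gm47409 and Rab3c. Fcgr4, Fcer1g and Fcgrt shared no 50-base stretch with any other transcript. Fcgr2b is overlapped on the other strand by the gene model Gm38204, and Fcgrt by Gm45669. The counting is not stated to use strand, so reads of these pairs cannot be told apart. On the same strand, Fcgr3 overlaps Mir6546 and Fcgr4 overlaps Gm26110.

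Fcgrt, the neonatal receptor, was at nearly the same level in all hearts. It lies at chr7:45092993-45103822 on the minus strand (ENSMUSG00000003420). Its normalized counts were 2417, 2826 and 2534 in control hearts and 2656, 2634 and 2573 in hearts given miR-19a/19b mimic. All 3 miR-19a/19b hearts lay inside the control range, and the log2 fold change was 0.02 with a 95% interval from -0.21 to 0.25. The sign of so small a value turned to -0.03 without control replicate 1.

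**Figure D1:**
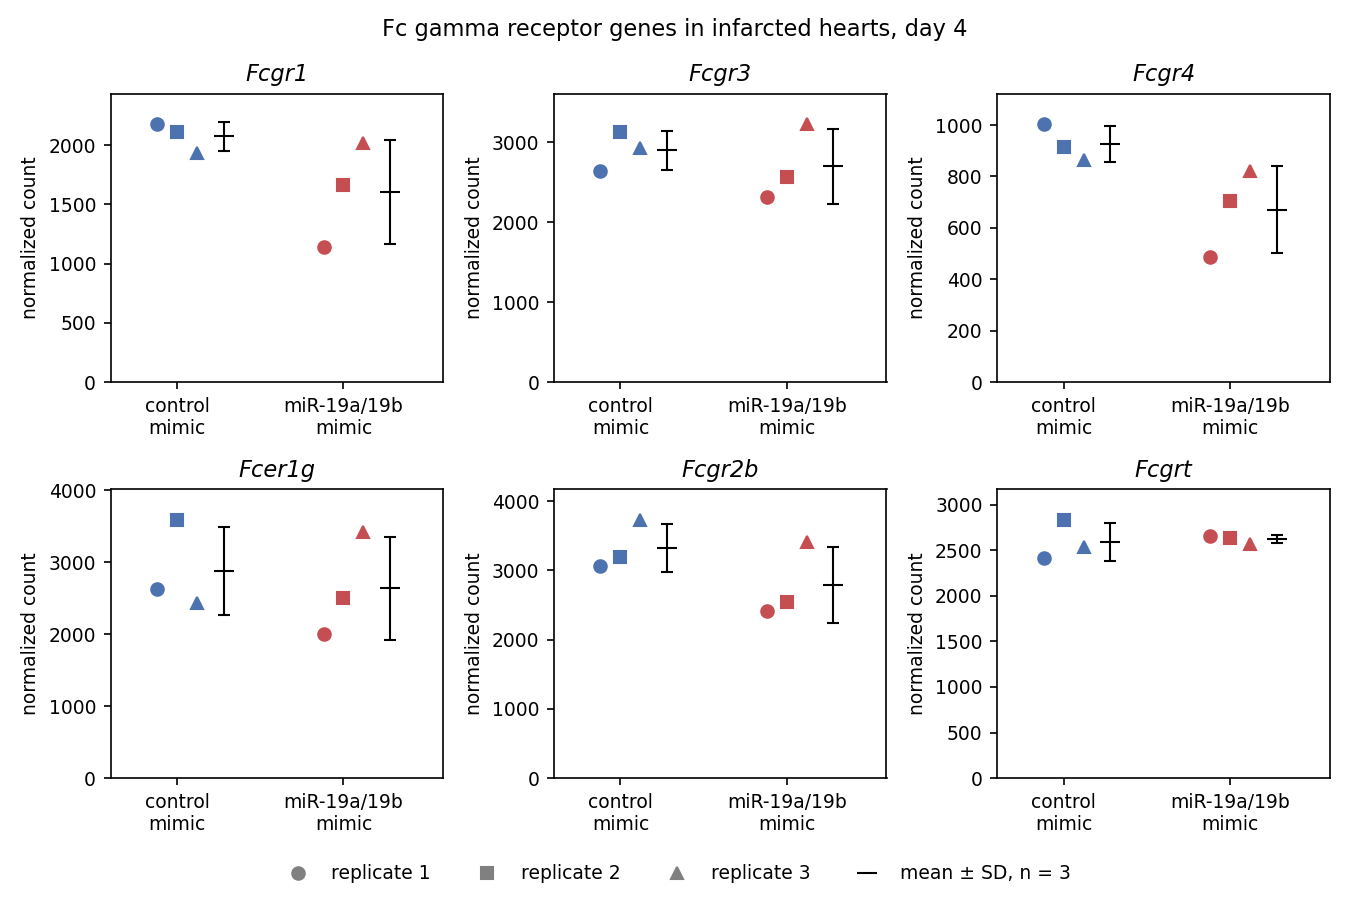
Normalized counts (y axis, from 0) of the 6 genes in each heart by group; symbols mark the replicate number, and the bar is the mean ± SD of 3 hearts. Fcgr4 is the one gene whose groups do not overlap, and miR-19a/19b mimic replicate 1 is the lowest heart for every gene but Fcgrt.

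**Figure D2:**
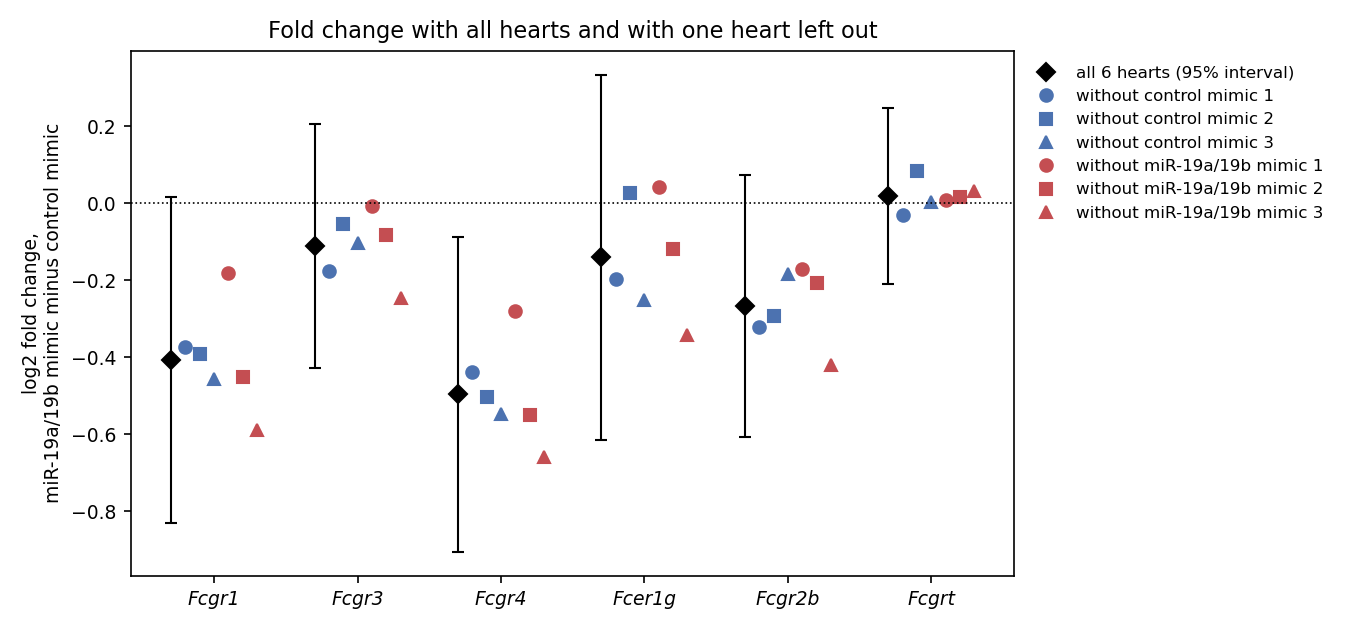
Log2 fold change (y axis) of each gene with all 6 hearts (black diamond with its 95% interval from limma) and with each heart left out in turn (blue for control mimic, red for miR-19a/19b mimic hearts). Leaving out miR-19a/19b mimic replicate 1 brings Fcgr1, Fcgr3, Fcgr4 and Fcgr2b nearer to 0, and leaving out replicate 3 takes these genes and Fcer1g further below 0.

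The plot with each heart left out shows that the 2 hearts that stand apart pull the receptors in opposite directions. For Fcgr1, Fcgr3, Fcgr4, Fcer1g and Fcgr2b, replicate 1 was the lowest of the miR-19a/19b hearts and replicate 3 the highest, the same order as the macrophage markers and the reverse of the cardiomyocyte markers (845304, 750839 and 285718 in replicates 1, 2 and 3). The part of these differences in tissue make-up in the receptor values was not tested beyond the ratios below.

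Levels of different genes were compared per kilobase of gene length. Fcer1g was the highest of the 6 in every heart, at 2293 to 4099 normalized counts per kilobase. Fcgr3 followed at 1334 to 1856 and Fcgrt at 1391 to 1626, ranges that overlapped, with Fcgr3 above Fcgrt in 4 of 6 hearts. The next was Fcgr1 at 441 to 840, apart from both of them. Fcgr4 at 387 to 798 and Fcgr2b at 417 to 643 overlapped with Fcgr1 and with each other, although Fcgr1 was above Fcgr4 in 6 of 6 hearts and Fcgr4 was above Fcgr2b in 5 of 6. In miR-19a/19b mimic replicate 1 Fcgr4 was the lowest instead. The low place of Fcgr2b depends on the length used, 5790 bases here, while its longest coding transcript has 3544 bases. The order of Fcgr3 and Fcgrt, and the overlap of their ranges, depend on it as well. The lengths used were 1736 bases for Fcgr3 and 1738 for Fcgrt, while their longest coding transcripts have 1347 and 1770 bases.

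The balance of activating to inhibitory receptors was taken as the mean log2 of Fcgr1, Fcgr3 and Fcgr4 minus that of Fcgr2b. It was -0.78, -0.81 and -1.13 in controls and -1.15, -0.81 and -0.97 in miR-19a/19b mimic hearts, so the groups overlapped. The difference of -0.07 was smaller than the SD within either group (0.197 and 0.168), with a two-sided exact permutation p of 0.5. With 3 hearts against 3 no exact p can be below 0.1, and 15 such ratios were tested together. Its sign was not fixed either, at 0.003 when levels per kilobase were summed before the ratio and 0.02 without miR-19a/19b mimic replicate 1.

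Taken singly, the activating receptors gave differences from Fcgr2b in both directions. Fcgr3 over Fcgr2b was higher by 0.16 on the log2 scale in the miR-19a/19b hearts (two-sided exact permutation p = 0.3), Fcer1g over Fcgr2b by 0.13 (p = 0.7). Fcgr1 over Fcgr2b was -0.68 ± 0.234 (SD, n = 3) in controls and -0.82 ± 0.240 in miR-19a/19b hearts (exact permutation p = 0.5), and Fcgr4 over Fcgr2b was -1.84 ± 0.248 and -2.07 ± 0.233 (exact permutation p = 0.4). All 4 ratios overlapped between the groups, and for each the adjusted p over the 15 ratios was at least 0.625.

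Among the activating receptors themselves the groups did not overlap. The log2 ratio of Fcgr1 to Fcgr3 was -0.28, -0.57 and -0.59 in controls and -1.02, -0.63 and -0.68 in miR-19a/19b mimic hearts. Every miR-19a/19b heart lay below every control heart, by a narrow margin in replicate 2, and the difference was -0.29. The log2 ratio of Fcgr4 to Fcgr3 was -1.40, -1.77 and -1.76 in controls and -2.25, -1.86 and -1.97 in the hearts with miR-19a/19b mimic. The difference was -0.38, with no overlap. Fcgr4 to Fcgr1 was the steadiest ratio, at -1.12, -1.20 and -1.16 against -1.23, -1.23 and -1.29. Its difference was only -0.09, and the groups did not overlap, by a narrow margin. The 3 ratios are built from the same 3 genes and are not independent of each other. Each of these 3 ratios had the smallest two-sided exact permutation p that the design allows, 0.1, and an adjusted p of 0.3, so none passed a threshold of 0.05. Leaving out any 1 heart kept the sign, between -0.37 and -0.17 for Fcgr1 to Fcgr3 and between -0.47 and -0.26 for Fcgr4 to Fcgr3.

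To set the receptors beside the cells that carry them, each was compared with the mean log2 level of the 22 macrophage and monocyte markers. That mean was 10.9 ± 0.0263 (SD, n = 3) in control hearts and 10.8 ± 0.217 in miR-19a/19b hearts, a difference of -0.13 (two-sided exact permutation p = 0.4). Fcgr1 relative to it was 0.13, 0.08 and 0.01 in controls and -0.44, -0.10 and -0.05 in miR-19a/19b hearts. All 3 miR-19a/19b hearts lay below all 3 controls. Fcgr4 relative to the markers was -0.98, -1.12 and -1.16 in controls and -1.67, -1.34 and -1.35 in miR-19a/19b hearts, again with no overlap. The differences were -0.27 for Fcgr1 and -0.36 for Fcgr4, each with an exact permutation p of 0.1 (adjusted p = 0.3), and they were -0.15 and -0.25 without miR-19a/19b mimic replicate 1. When the markers were limited to Cd68, Adgre1 and Csf1r the differences were -0.26 and -0.35, with exact permutation p-values of 0.3 and 0.2. Both p-values are above 0.1, so the groups overlapped with these 3 markers.

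For the other members the groups overlapped relative to the markers. The difference relative to the markers was 0.02 for Fcgr3 (two-sided exact permutation p = 0.9), -0.01 for Fcer1g (p = 1), -0.13 for Fcgr2b (p = 0.5) and 0.15 for Fcgrt (p = 0.4). For Fcgrt the values were 0.29, 0.50 and 0.39 in controls and 0.78, 0.56 and 0.30 in miR-19a/19b hearts, highest in replicate 1, where the marker mean was lowest. For Fcer1g the sign turned with the 3 markers alone (0.01).

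**Figure D3:**
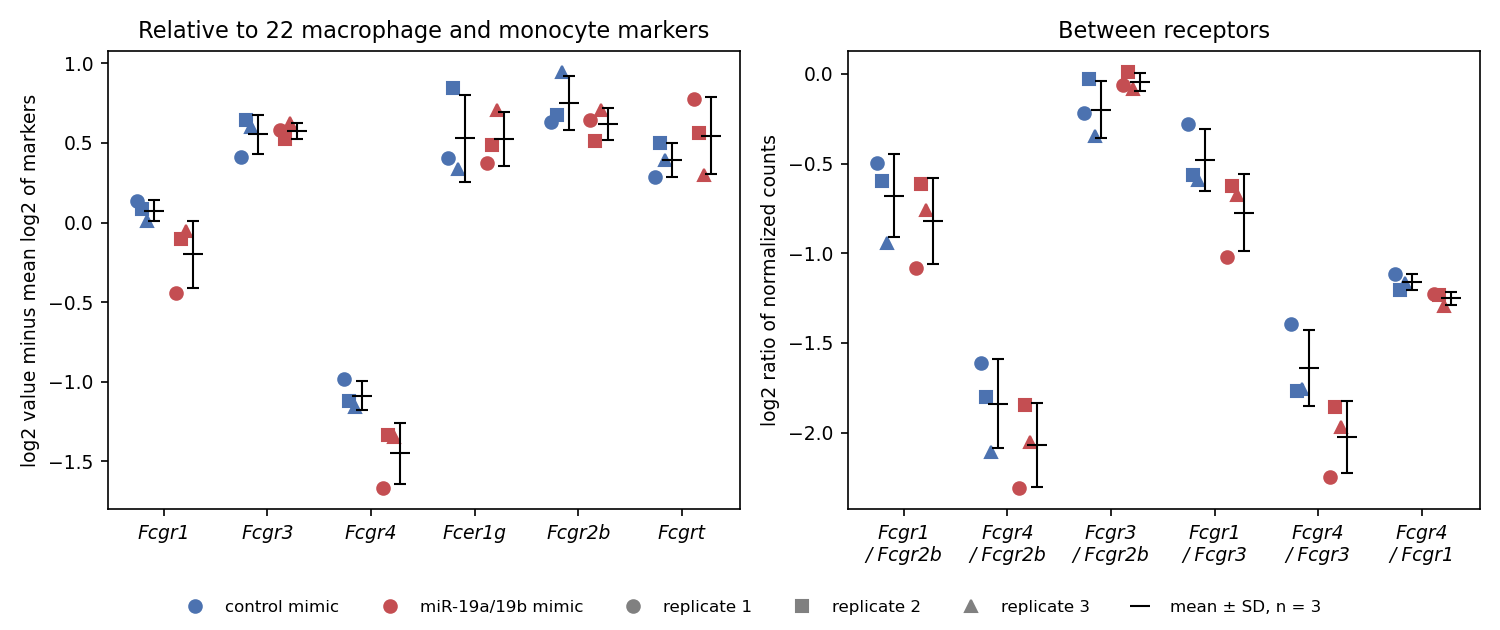
Log2 level of each gene minus the mean log2 of 22 macrophage and monocyte markers (left) and log2 ratios between receptors (right) in each heart, with the mean ± SD of 3 hearts; colours mark the group and symbols the replicate number. Fcgr1 and Fcgr4 lie lower in all 3 miR-19a/19b mimic hearts relative to these 22 markers and to Fcgr3, while the ratios to Fcgr2b overlap. Relative to Cd68, Adgre1 and Csf1r alone (not drawn) the groups overlap.

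Over the 6 hearts the log2 levels of the 5 members other than Fcgrt correlated positively with one another. Pearson's r was highest for Fcgr1 with Fcgr4 (0.99), followed by 0.89 for Fcgr3 with Fcer1g and 0.83 for Fcgr3 with Fcgr2b, which share sequence. The other pairs among these 5 genes lay between 0.55, for Fcer1g with Fcgr2b, and 0.77, for Fcgr1 with Fcgr3. Fcgrt gave r between -0.29 and 0.32 with them. These values describe 6 libraries that share 2 group means and the differences in tissue make-up given above. Of the 11608 genes with a mean of at least 100, the 3 whose pattern over the hearts was most like Fcgr1 were Zdhhc24, Stx11 and Cnp, and Zdhhc24 and Stx11 (both r = 0.99) were also among the 3 most like Fcgr4. Most like Fcgr3 were Casp12, Btk and Prkaa1, most like Fcer1g were Snx10, M6pr and Gm4204, and most like Fcgr2b were Srbd1, Ubash3b and Pfdn4. Those most like Fcgrt were Dhx29, Ercc6l2 and Exosc4. These r values were not tested.

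The light chain of FcRn and the Fc receptor of the cytosol had lower means in the miR-19a/19b hearts, although neither passed the test. B2m, the light chain of FcRn and of MHC class I, was at 22342, 20309 and 18839 normalized counts in control hearts and 14609, 17648 and 15295 in hearts given miR-19a/19b mimic. The groups did not overlap, and the log2 fold change was -0.37. Trim21, the cytosolic receptor that binds antibody on entering viruses, was at 335, 366 and 305 against 205, 263 and 294, with a log2 fold change of -0.41 and no overlap. Both had an unadjusted limma p under 0.05 and an adjusted p of 0.9996. Over all genes, 2.63% were lower at that unadjusted p, and 5.3% did not overlap with the miR-19a/19b hearts lower. Alb, whose protein FcRn also carries, was listed with no counts in all 6 hearts.

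Downstream of the activating receptors, 22 of 26 ITAM kinases and adaptors had a log2 fold change below 0, with a median of -0.14 (-0.08 without miR-19a/19b mimic replicate 1 and -0.32 without replicate 3). Over all genes, 49.2% lay below 0 and 2.63% were lower at an unadjusted limma p under 0.05. None of the 26 was called by limma, and 2 had an unadjusted p under 0.05. These were Vav2, an exchange factor for Rac (log2 fold change -0.27), and Lat, an adaptor best known from T cells (-0.88). Syk, the kinase that docks on the gamma chain, had the highest normalized counts of the list, at 3221, 3384 and 3370 normalized counts in control hearts and 3248, 2734 and 3384 in hearts given miR-19a/19b mimic. Its groups overlapped (log2 fold change -0.10), and the largest positive value of the list was 0.08, for Vav3.

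Among the 20 genes of the actin machinery that closes the phagocytic cup, 15 lay below 0 (49.2% of all genes). None had an unadjusted limma p under 0.05. The median was -0.10 (0.02 without miR-19a/19b mimic replicate 1 and -0.22 without replicate 3), and the extremes were Amph (-0.52), an amphiphysin that bends membranes, and Fcho1 (0.22), of clathrin-coated pits. Cfl1, cofilin, had the highest normalized counts (log2 fold change 0.11). Of the 5 subunits of the NADPH oxidase that makes the oxidative burst, 4 lay below 0 (49.2% of all genes). An unadjusted limma p under 0.05 was found for 1 subunit (2.63% of all genes, lower). This was Cybb, the catalytic subunit, at 2784, 2994 and 3284 normalized counts in control hearts and 1946, 1893 and 2831 in hearts given miR-19a/19b mimic. The groups overlapped through replicate 3 (log2 fold change -0.46). Its membrane partner Cyba had a log2 fold change of 0.03. The median of the 5 was -0.12, and it turned to 0.05 without replicate 1 and was -0.35 without replicate 3.

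Among ITIM effectors and other signal dampers, 10 of 11 listed genes lay below 0 (49.2% of all genes). Their median was -0.10, and none had an unadjusted limma p under 0.05. The median was -0.33 without miR-19a/19b mimic replicate 3 and -0.04 without control replicate 1. The highest normalized counts were those of Ptpn11, the phosphatase SHP-2 (log2 fold change -0.04). The lowest fold change was that of Ptprc (-0.35), and the highest that of Dok1 (0.02), an adaptor. Ptprc is the leukocyte phosphatase CD45, which is not itself an effector of ITIM receptors.

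Of 21 other receptors that pair with Fcer1g or with the related chain Tyrobp, 18 lay below 0 (49.2% of all genes). Their median was -0.13 (-0.02 without miR-19a/19b mimic replicate 1 and -0.40 without replicate 3). An unadjusted limma p under 0.05 was found for 2 of them (2.63% of all genes, lower). Both were lower and did not overlap (5.3% of all genes). Sirpb1a, a signal-regulatory protein of myeloid cells, was at 170, 147 and 141 normalized counts in control hearts and 85.0, 65.0 and 127 in miR-19a/19b hearts (log2 fold change -0.77). Klrk1, the natural killer cell receptor NKG2D, was at 67.4, 68.3 and 44.8 against 28.0, 35.1 and 35.4 (-0.84). Clec4n, dectin-2, which pairs with the gamma chain, had the highest fold change of the list (0.34), and Trem2, which pairs with Tyrobp, had the highest normalized counts (log2 fold change -0.06).

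The immunoglobulin genes, of which only some encode parts of IgG, were tested next to the other Fc receptors. Of 12 immunoglobulin genes 10 passed the minimum mean, and 4 of these lay below 0 and 6 above (49.2% of all genes below 0). The IgG heavy chain genes Ighg2b and Ighg2c had log2 fold changes of -0.08 and 0.78. Both overlapped between the groups, on means of only 3.49 and 15.4 normalized counts. Ighg1 and Ighg3 fell under the minimum mean. Ighm and Igha encode chains of IgM and IgA, so their values are not those of IgG. Ighm had the highest normalized counts, at 265 to 402 normalized counts over the 6 hearts (log2 fold change -0.25). Igha had the highest log2 fold change and an unadjusted limma p under 0.05 (1.92), on 0.934 to 9.76 normalized counts in control hearts and 62.4, 14.4 and 7.78 in replicates 1, 2 and 3 of the miR-19a/19b group. Of 9 other Fc receptors and Fc receptor-like genes tested, 4 lay below 0 and 5 above. Fcrl5, a receptor of B cells, was at 23.2, 13.7 and 13.1 normalized counts against 7.53, 2.06 and 2.59 (log2 fold change -1.91, unadjusted limma p under 0.05), too few reads for a firm value. Fcrls, of macrophages, had the highest normalized counts (log2 fold change -0.12), and Pigr, the receptor that carries IgA across epithelium, the highest fold change among those with a mean of at least 10 (0.46).

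Genes induced by interferon were listed because interferon is a known inducer of Fcgr1 and Fcgr4, and their lower level in the miR-19a/19b hearts was known from earlier results of these data. Of 19 such genes 17 lay below 0, with a median of -0.58 (-0.35 without miR-19a/19b mimic replicate 1 and -0.65 without replicate 3), 12 did not overlap with the miR-19a/19b hearts lower (5.3% of all genes) and 11 had an unadjusted limma p under 0.05 (2.63% of all genes). None was called after adjustment by limma. The largest difference was that of Ifit1 (-1.05), Irf7 had the highest normalized counts (-0.73), and Ifngr2, a chain of the interferon gamma receptor, had a value of 0.03. The values of Stat2 (-0.59), Irf9 (-0.33), Isg15 (-0.85), Ifit3 (-0.91), Cxcl9 (-0.68), Ifi47 (-0.65), Igtp (-0.81) and Irgm1 (-0.73) all lay between those of Ifit1 and Ifngr2. As the list was chosen with its lower level known, the counts above are not independent support for that level. Whether interferon has a part in the Fcgr1 and Fcgr4 values was not tested.

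**Figure D4:**
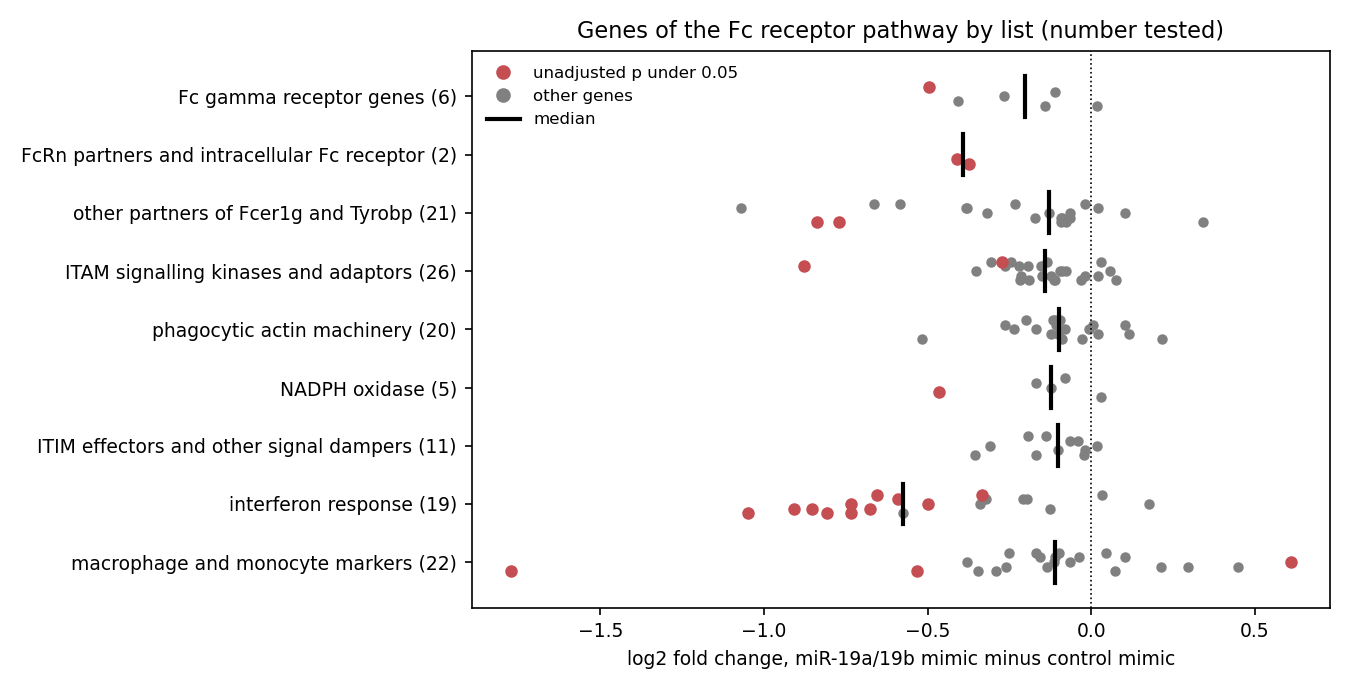
Log2 fold change (x axis) of every tested gene of the receptor family and of the pathway lists, with the number tested in brackets; red points have an unadjusted limma p under 0.05, and black bars are medians. Medians of the signalling lists lie between -0.14 and -0.10, near that of the macrophage markers (-0.11), and the interferon list lies lowest, at -0.58; without miR-19a/19b mimic replicate 1 these become -0.10 to 0.05, 0.02 and -0.35.

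Markers of the cells that carry Fc receptors gave values in both directions. Over all genes, 49.2% lay below 0, and 2.63% were lower and 1.39% higher at an unadjusted limma p under 0.05. Of the 22 macrophage and monocyte markers 15 lay below 0 and 7 above, with a median of -0.11, and none was called by limma. DESeq2 did call Ly6c2, with the smallest adjusted p of its fit (Wald test, adjusted p = 2.61e-06). Ly6c2, of inflammatory monocytes, was at 818, 748 and 465 normalized counts in control hearts and 148, 268 and 176 in hearts given miR-19a/19b mimic (log2 fold change -1.77), and Ccr2, the receptor that recruits them, had a value of -0.53. Cd163, of resident macrophages, had a value of 0.61. These 3 markers had an unadjusted limma p under 0.05, and Lyz2 had the highest normalized counts of the list (-0.07). The macrophage median was 0.02 without miR-19a/19b mimic replicate 1 and -0.26 without replicate 3. Of 12 neutrophil markers 11 lay below 0, with a median of -0.39 and 1, Retnlg (-1.52), with an unadjusted limma p under 0.05. That median turned to 0.08 without replicate 1, was -0.71 without replicate 3 and was -0.17 by DESeq2. All 6 natural killer cell markers lay below 0, with a median of -1.11 and a summed level of 130 to 263 in control hearts and 66.7 to 118 in miR-19a/19b hearts. All 7 T cell markers lay below 0 (median -0.64), as did 4 of 6 dendritic cell markers (median -0.35). An unadjusted limma p under 0.05 was found for 4 natural killer cell, 3 T cell and 3 dendritic cell markers, all lower. Without miR-19a/19b mimic replicate 1 the natural killer cell median was -0.85 and the T cell median -0.73. Without replicate 3 they were -1.06 and -0.62. The dendritic cell median was -0.27 without miR-19a/19b mimic replicate 1 and -0.52 without replicate 3. It was -0.16 with at least 10 normalized counts in every heart. No marker of B cells, mast cells, endothelium, fibroblasts or cardiomyocytes had an unadjusted limma p under 0.05. Whether a shift among these cells accounts for the values of Fcgr1 and Fcgr4 was not tested.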

How the data were processed

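Total RNA of ventricular tissue was purified on poly-T beads and made into libraries with an NEBNext Ultra kit. Tools named in the submitters' processing notes are STAR 2.5.1b, HTSeq 0.6.0 and DESeq2 1.10.1, with build mm9. The gene coordinates match GRCm38 instead (GENCODE M21 holds 25884 of 26012 identifiers, 82.7% with the same start and end), and GRCm38 is used here. The methods name edgeR. The values the authors deposited are a signal, normalized counts (reads per gene divided by a size factor). Dividing by the value of 1 read gave whole reads for 100% of values (tolerance 0.05). The authors' fold changes, p-values and their table of differential genes were not used.

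Groups were compared, 3 biological replicates each, by limma 3.58.1 (R 4.3.3), with its prior variance allowed to follow expression, on log2(value + 1) over genes with a mean of at least 1, with Benjamini-Hochberg adjustment and a threshold of 0.05. Fold changes of low genes are understated on this scale. edgeR 4.0.16 and DESeq2 1.42.0 on recovered reads were alternatives, as were TMM scaling, other pseudocounts and filters, a replicate block and leaving out each heart. Ratios were tested by exact permutation over hearts. Of these tests, only limma was checked on simulated data. Replicate numbers were not treated as pairing the hearts in the main test. Where a symbol occurred on more than 1 line (Itgam), the line with the highest mean was used. The named genes are the members and, from each list, genes with an unadjusted p under 0.05, those with the largest positive and negative values (mean of at least 10) and the one with the highest mean. The members, the gene lists and the motifs were chosen with earlier results of these data known. A few genes that the naming rules select are not reported here.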

Additional observations from a re-analysis of the deposited data

How the results depend on the processing

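Across the 8 alternatives with all 6 hearts, every member kept its direction and its side of the threshold, with log2 fold changes of Fcgr4 between -0.50 and -0.46 and of Fcgr1 between -0.41 and -0.37. Same-numbered hearts did not deviate together (r = -0.01, -0.02 and -0.11). Differently numbered hearts gave r from -0.10 to 0.12. No pairing by number was seen, but with 3 hearts a group these values cannot exclude one. With the replicate block the log2 fold changes were the same (Fcgr4 -0.50, Fcgr1 -0.41), every member had an adjusted p of 0.9999 by limma, and no gene was called. DESeq2 called 28 genes lower and 1 higher where limma called none, and had 177 genes higher at an unadjusted p under 0.05 in place of 293. With at least 10 normalized counts in every heart there were 146. Leaving out each heart in turn gave 0 to 154 genes lower and 0 to 361 higher at an adjusted limma p under 0.05, and 372 to 1293 lower and 215 to 1777 higher unadjusted, the highest of each without miR-19a/19b mimic replicate 3. Under the same omissions the log2 fold change ran from -0.66 to -0.28 for Fcgr4, from -0.34 to 0.042 for Fcer1g and from -0.030 to 0.083 for Fcgrt. The ratio differences ran from -0.18 to 0.015 for the activating mean over Fcgr2b, from -0.067 to 0.32 for Fcer1g over Fcgr2b, from -0.048 to 0.068 for Fcgr3 relative to the macrophage markers and from -0.10 to 0.15 for Fcer1g relative to them. The sign also turned for the activating receptors over Fcgr2b summed per kilobase (0.0030) and for Fcer1g relative to Cd68, Adgre1 and Csf1r alone (0.0099). The cause of these turns was not tested. No detection limit was computed for 3 hearts a group.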
